A study of Mus musculus with 6 samples.

Results

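The expression of 34 genes of glycolysis and the hypoxia response was compared in sinusoidal endothelial cells (SECs) of fibrotic mouse liver. The animals either had a conditional deletion of endothelial RBPj or were controls. The genes were chosen by name, as the rows of the deposited gene table that carry one of 34 symbols, out of 41799 rows in all. They comprise 21 genes of glycolysis and of glucose and lactate transport, 6 genes of pyruvate dehydrogenase and its kinases, and 7 genes of the hypoxia-inducible factor (HIF) system. Transcriptomes were compared between 3 knock-out libraries, in which endothelial RBPj had been conditionally deleted, and 3 control libraries, for which the labels give no genotype beyond the word control. Male mice of both groups received tamoxifen from 4 to 6 weeks of age (2 mg per 20 g body weight, daily for 7 days) and rested for 1 week. All then received carbon tetrachloride (CCl4, 0.6 µl per g, 15% in olive oil) 2 times a week for 6 weeks and were 12 to 14 weeks old, so no value here compares fibrotic with healthy liver. The strain label was C57BL/6 in 4 libraries, C57BL/7 in knock-out replicate 2 and C57BL/8 in knock-out replicate 3. No source used here names the recombinase line behind the deletion or its promoter. The labels do not tell whether each replicate was a mouse of its own, so p-values reflect the variation among these libraries, which may be technical.

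Glycolysis splits glucose into pyruvate in the cytosol and yields ATP without oxygen. Endothelial cells are known to rely on it heavily. Pyruvate then either becomes lactate, which leaves the cell through monocarboxylate transporters, or enters the mitochondrion, where pyruvate dehydrogenase commits it to the citric acid cycle unless pyruvate dehydrogenase kinases switch that enzyme off. When oxygen is plentiful, prolyl hydroxylases mark the HIF alpha subunits for destruction by the Vhl ubiquitin ligase. When oxygen is scarce the alpha subunits persist and raise the transcription of many glycolytic genes. RBPj is the transcription factor that carries the Notch signal to DNA.

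Total counts were between 10372195 and 12326770 per library. Rbpj itself was at 11.6, 8.10 and 11.9 CPM (counts normalized to a common library size) in knock-out SECs, against 18.6, 14.5 and 16.4 CPM in control SECs (log2 value -0.64 ± 0.19 (SE), adjusted p = 0.187 by edgeR). Rbpj RNA thus remained in knock-out SECs, at 0.64-fold of the control level. The 14 endothelial markers summed to 22011 to 27258 CPM in knock-out libraries and 16068 to 21981 CPM in control libraries, and none was at 0. Of these, 11 had log2 fold changes above 0 and 3 below (median 0.35, beside -0.03 over all tested genes). The groups did not overlap for 5, higher, and 1, lower, beside 13.2% and 11.7% of all tested genes. Replicate 1 of both groups stood apart in neutrophil markers, which summed to 4688 CPM in knock-out replicate 1 and 22725 CPM in control replicate 1, against 370 to 851 CPM in the other 4 libraries. Of the 10 neutrophil markers, Mpo was at 0 counts throughout. The 8 that were tested had log2 fold changes below 0 (median -1.87), with 0 at an unadjusted p under 0.05. Stellate cell markers summed to 1412 to 6128 CPM in knock-out and 4515 to 12689 CPM in control libraries, with 0 of 12 markers at 0. All 12 had log2 fold changes below 0 (median -1.50). At an unadjusted p under 0.05, 5 of 12 were lower, beside 8.13% of all tested genes. The groups did not overlap for 9 of 12, lower in knock-out libraries, beside 11.7% of all tested genes. Macrophage markers summed to 789 to 3111 CPM and 2576 to 4924 CPM, and hepatocyte markers to 335 to 4814 CPM and 656 to 2796 CPM, in knock-out and control libraries, with 0 of 12 at 0 in either list. By log2 fold change, 10 of 12 macrophage markers were lower and 2 higher in knock-out libraries (median -1.10). Of 10 hepatocyte markers tested, 7 were higher and 3 lower (median 0.38). Proliferation genes summed to 439 to 660 CPM in knock-out and 165 to 342 CPM in control libraries. Of 10, 9 were higher at an unadjusted p under 0.05, beside 9.39% of all tested genes. The part of these markers in the values below was not tested, and in such bulk samples fewer cells of a type and less RNA per cell cannot be told apart.

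The upstream sequences of 5 members are shown because these genes had groups that did not overlap and log2 fold changes beyond 0.7 in either direction, so the results turn on them. Each is the 250 bases before the annotated start site, read 5′ to 3′ on the gene's own strand, from RefSeq on GRCm38.p6. For Pdk1, which has another start site downstream, the more upstream one is shown. Capitals mark the letters ACGTG or GCGTG on either strand (CACGT or CACGC where the match is on the other strand), which form the core that HIF binds, and GTGGGAA, a core that RBPj binds.
Hk2 (chr6:82774455-82774704, minus strand): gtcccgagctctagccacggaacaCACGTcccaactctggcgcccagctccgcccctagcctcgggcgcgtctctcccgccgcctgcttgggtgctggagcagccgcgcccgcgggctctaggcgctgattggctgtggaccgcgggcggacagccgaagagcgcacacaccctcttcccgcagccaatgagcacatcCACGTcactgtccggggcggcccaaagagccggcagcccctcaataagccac
Pfkl (chr10:78009808-78010057, minus strand): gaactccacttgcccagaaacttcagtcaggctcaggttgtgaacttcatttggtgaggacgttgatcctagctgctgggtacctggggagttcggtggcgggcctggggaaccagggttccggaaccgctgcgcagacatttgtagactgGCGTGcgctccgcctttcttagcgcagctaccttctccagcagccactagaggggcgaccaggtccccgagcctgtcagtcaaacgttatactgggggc
Pdk1 (chr2:71872974-71873223, plus strand): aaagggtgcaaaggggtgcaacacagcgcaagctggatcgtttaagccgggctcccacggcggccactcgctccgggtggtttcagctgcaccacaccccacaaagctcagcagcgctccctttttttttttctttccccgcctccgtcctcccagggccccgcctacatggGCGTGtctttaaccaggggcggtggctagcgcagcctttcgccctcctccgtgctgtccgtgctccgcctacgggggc
Pdk4 (chr6:5496279-5496528, minus strand): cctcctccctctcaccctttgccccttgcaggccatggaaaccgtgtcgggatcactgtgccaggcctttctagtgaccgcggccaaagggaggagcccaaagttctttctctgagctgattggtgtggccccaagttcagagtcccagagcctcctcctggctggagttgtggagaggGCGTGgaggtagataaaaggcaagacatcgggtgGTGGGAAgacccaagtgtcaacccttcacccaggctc
Egln3 (chr12:54203875-54204124, minus strand): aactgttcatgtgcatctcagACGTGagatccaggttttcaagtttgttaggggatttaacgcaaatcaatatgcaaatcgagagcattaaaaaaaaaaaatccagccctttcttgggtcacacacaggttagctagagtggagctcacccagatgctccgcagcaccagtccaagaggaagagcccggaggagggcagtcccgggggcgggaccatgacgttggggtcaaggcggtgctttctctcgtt

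Hk2 held ACGTG at 2 places, both on the opposite strand, and Egln3 held it at 1 place. Pfkl, Pdk1 and Pdk4 held GCGTG at 1 place each, and Pdk4 held GTGGGAA as well. The stretch before the other Pdk1 start site, which is not shown, held none of these cores. RefSeq entries matched 33 of the 34 members, with 47 start sites between them. ACGTG was present upstream of 22 of these 47 start sites (46.8%), against 16.6% of all 32851 promoters of the same length and 20.9% of the 13327 promoters of tested genes. GCGTG was present at 25 of 47 (53.2%), against 28.2% of all promoters and 41.9% of those of tested genes. CACGTG, the E-box, which contains ACGTG, was present at 7 of 47 (14.9%), against 6.02% and 7.92%. GTGGGAA was present at 3 of 47 (6.38%), those of Aldoc, Pdha1 and Pdk4, against 5.42% and 5.50%. Some stretches of the same gene overlap, as in Aldoa, Eno1 and Pfkm, so a single match can count at more than 1 start site. By gene, ACGTG was upstream of 19 of the 33 members and GCGTG of 21. Both strands were read in every case, and a match is a description of letters and not of a bound site.

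All 34 members passed the filter on low counts and were tested among 15404 genes. At an adjusted p under 0.05, edgeR called 0 members, where it called 0.104% of all tested genes higher and 0.0909% lower (0.195% in either direction). At an unadjusted p under 0.05 there were 9 members (26.5%), against 17.5% of all tested genes. Of these, 5 were higher in knock-out SECs, against 9.39% of all genes, and they were Pfkl, Slc16a1, Pdk1, Pdk4 and Egln3. The other 4 were lower, against 8.13% of all genes, and they were Hk2, Pfkp, Pdha1 and Epas1. The 3 knock-out libraries lay wholly above the 3 control libraries for 5 members (13.2% of all genes) and wholly below them for 5 (11.7% of all genes), which made 29.4% of members beside 24.9% of all tested genes. The other tools made calls where edgeR made none. DESeq2 called Hk2 lower and Pfkl, Pdk1 and Pdk4 higher, 4 members or 11.8%. It called 3.22% of the 27090 genes with any counts, a wider set than the 15404 genes tested by edgeR, so the 2 shares are not alike. Limma-voom with sample quality weights called Hk2 and Pfkp lower and Pdk4 and Egln3 higher, where it called 3.49% of all genes. The median log2 fold change was -0.01 over the 21 glycolysis genes, 0.02 over the 6 pyruvate dehydrogenase genes and 0.35 over the 7 HIF genes, beside -0.03 over all tested genes. The classes thus held members on both sides of 0 and no member passed the edgeR threshold.

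Per gene length, as RPKM (read counts scaled to gene length and library total), the pyruvate kinase gene Pkm had the highest mean level of the 34 genes, at 307, 225 and 197 RPKM in knock-out libraries and 227, 165 and 126 RPKM in control libraries. Epas1, which encodes a HIF alpha subunit, came next at 122, 167 and 153 RPKM in knock-out libraries and 193, 186 and 179 RPKM in control libraries. The levels of Pkm and Epas1 overlapped in control libraries and did not overlap in knock-out libraries. Ldha, Aldoa, Gpi1 and Tpi1 followed with means over the 6 libraries of 116, 92.1, 71.6 and 47.9 RPKM. At the low end lay Hk2 (1.86 RPKM), Aldoc (1.44 RPKM) and Eno2 (0.350 RPKM), the last with under 50 counts in every library. The Eno1 row had 0.813 RPKM, which is not ranked here because the row does not lie at the Eno1 locus. The dot plot of all members by library shows this range.

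**Figure D1:**
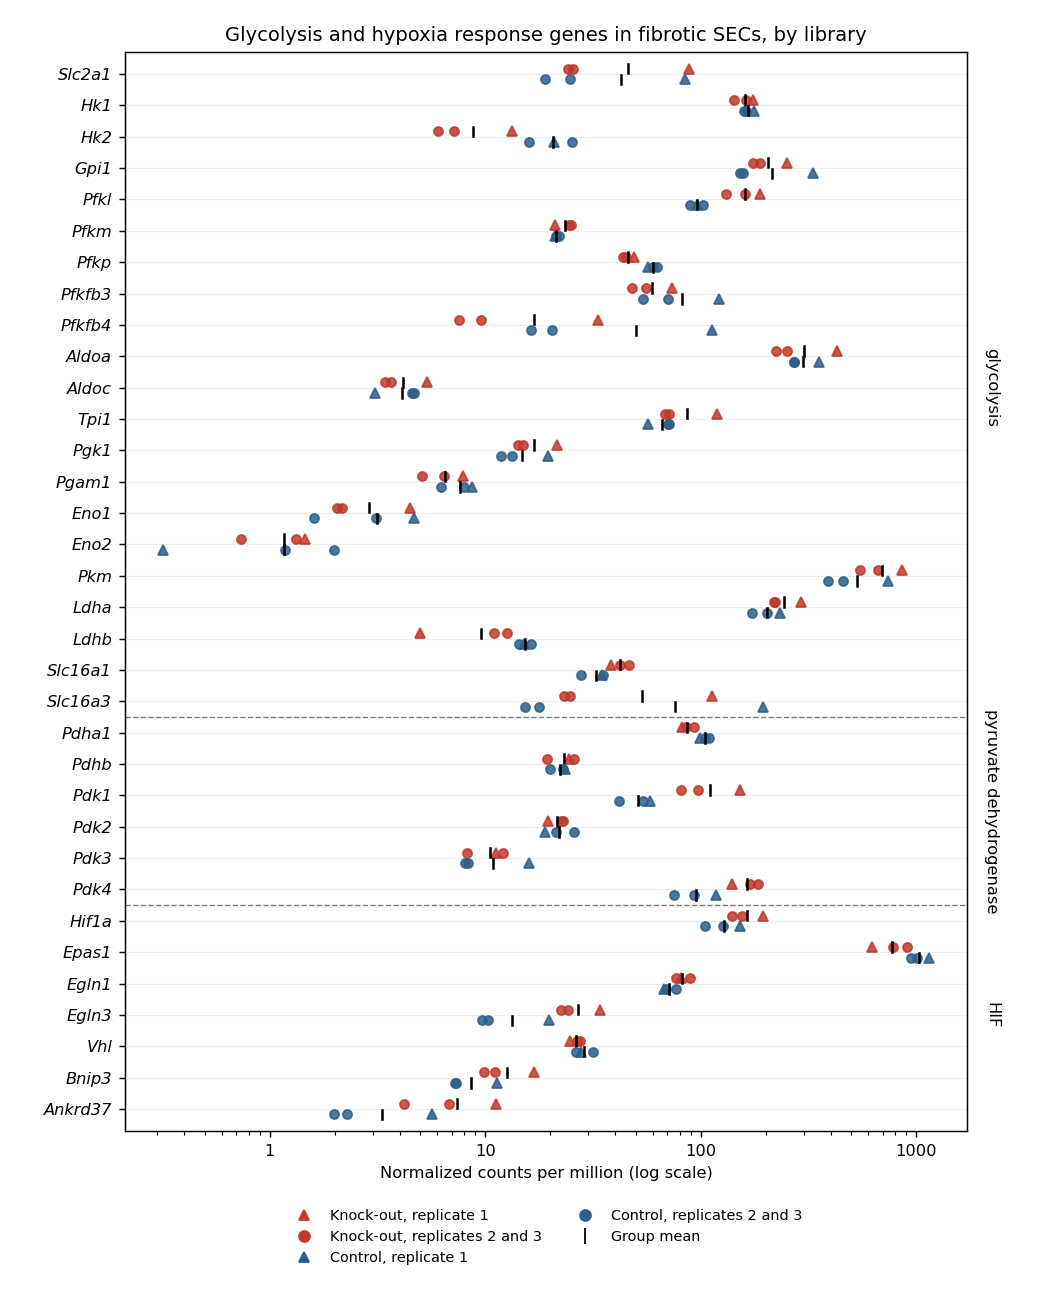
Normalized CPM (log scale) of the 34 members in the 3 knock-out libraries (red, upper of each pair) and the 3 control libraries (blue, lower), in the order of glycolysis, then pyruvate dehydrogenase and HIF genes. Triangles are replicate 1, circles replicates 2 and 3, and black ticks group means, and the triangles of Slc2a1, Slc16a3 and Pfkfb4 lie far to the right of the circles in both groups.

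At the first steps of glycolysis edgeR called no gene, and of the 4 genes Hk2 alone had groups that did not overlap. Hk2, the regulated hexokinase that traps glucose in the cell and can sit on mitochondria, was at 13.3, 6.06 and 7.13 CPM in knock-out SECs, against 20.9, 15.95 and 25.3 CPM in control SECs. The 3 knock-out values were all under the 3 control values. The means were 8.82 ± 3.89 and 20.7 ± 4.69 CPM (SD, n = 3 each), a log2 fold change of -1.23 ± 0.34 (SE) with a 95% interval from -2.06 to -0.41, which edgeR did not call (adjusted p = 0.167). Hk1, the constitutive hexokinase, was present at far higher levels of 142 to 175 CPM in knock-out and 158 to 176 CPM in control libraries, which overlapped (log2 fold change -0.05, 95% interval -0.32 to 0.22). Slc2a1, the GLUT1 glucose transporter, was at 88.3, 24.2 and 25.6 CPM in knock-out SECs and 84.5, 18.9 and 24.9 CPM in control SECs. Its spread lay within each group and not between the groups. Gpi1, which turns glucose phosphate into fructose phosphate, was at 174 to 250.01 CPM in knock-out and 152 to 331 CPM in control libraries.

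Phosphofructokinase catalyses the committed step of glycolysis, and the fold changes of its liver and platelet forms had opposite signs, neither of them past the edgeR threshold. Pfkl, the liver form, was at 189, 161 and 131 CPM in knock-out SECs, against 96.1, 103 and 88.7 CPM in control SECs. All knock-out libraries were above all control libraries, with means of 160.3 ± 28.9 and 95.8 ± 6.97 CPM (SD, n = 3 each). The log2 fold change was 0.74 ± 0.15 (SE), the smallest p of the 34 members, and it was not called by edgeR (adjusted p = 0.112). Pfkp, the platelet form, was at 48.8, 45.2 and 43.7 CPM in knock-out SECs, against 56.8, 60.01 and 62.6 CPM in control SECs. Again the groups were apart, here with the knock-out below (log2 fold change -0.38 ± 0.09 (SE), edgeR adjusted p = 0.138). Pfkp overlaps Pitrm1 on the opposite strand, and Pitrm1 had 93.1% as many counts, so without knowledge of strand their reads may mix. Pfkm, the muscle form, was at 21.1 to 25.0 CPM in knock-out and 21.01 to 21.9 CPM in control libraries, and it overlaps Senp1, which had 222% of its counts, in the same way.

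The bifunctional enzymes of Pfkfb3 and Pfkfb4 make and break down the sugar bisphosphate that activates phosphofructokinase, and Pfkfb3 is known for its role in vessel sprouting. Pfkfb3 was at 48.1 to 73.9 CPM in knock-out and 53.7 to 121 CPM in control libraries (log2 fold change -0.46 ± 0.33 (SE), and -0.065 without control replicate 1). Pfkfb4 was at 33.3, 9.58 and 7.59 CPM in knock-out SECs and 113, 16.4 and 20.4 CPM in control SECs. The groups overlapped, since knock-out replicate 1 was above control replicates 2 and 3. The log2 fold change of -1.57 had a 95% interval of -3.93 to 0.79, and it was -0.13 without control replicate 1 and -2.52 without knock-out replicate 1.

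Across the middle and lower steps the groups overlapped for every gene but Ldhb and Slc16a1. Aldoa, the main aldolase here, was at 224 to 427 CPM in knock-out and 271 to 353 CPM in control libraries, and Aldoc at 3.44 to 5.36 and 3.09 to 4.65 CPM in those groups. Tpi1, triose phosphate isomerase, was at 119, 71.1 and 68.6 CPM in knock-out and 56.7, 70.9 and 70.4 CPM in control SECs, so only knock-out replicate 1 stood out. The log2 fold changes of Aldoa, Tpi1, Pgk1 (phosphoglycerate kinase) and Pgam1 (phosphoglycerate mutase) were 0.01, 0.38, 0.18 and -0.23. Pgk1 had only 125 to 236 counts per library and Pgam1 62 to 87. Their means of 8.69 and 3.82 RPKM lay far below those of Tpi1 (47.9 RPKM) and Aldoa (92.1 RPKM). The reason for these low levels was not tested. Pkm was at 859, 665 and 549 CPM in knock-out SECs and 738, 459 and 390 CPM in control SECs. Knock-out replicates 2 and 3 were above control replicates 2 and 3 and below control replicate 1 (log2 fold change 0.39, 95% interval -0.31 to 1.08). Ldha, the lactate dehydrogenase subunit that favours lactate production, was at 219 to 293 CPM in knock-out and 173 to 232 CPM in control libraries (log2 fold change 0.27, 95% interval -0.15 to 0.68).

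Ldhb, the subunit that favours the return of lactate to pyruvate, was at 4.998, 10.97 and 12.6 CPM in knock-out SECs, against 15.1, 14.3 and 16.2 CPM in control SECs. The groups did not overlap, and knock-out replicate 1 was the lowest library by a wide margin (log2 value -0.67 ± 0.33 (SE), adjusted p = 0.352 by edgeR, and -0.35 without that library). Slc16a1, the monocarboxylate transporter MCT1, was at 38.3, 42.3 and 46.6 CPM in knock-out SECs, against 34.7, 35.1 and 27.7 CPM in control SECs. The knock-out libraries were all higher, with a log2 fold change of 0.38 ± 0.14 (SE) that edgeR did not call (adjusted p = 0.236). Slc16a3, the lactate exporter MCT4, was at 112, 24.6 and 23.2 CPM in knock-out SECs and 195, 15.4 and 17.7 CPM in control SECs. Its direction depended on single libraries, with a log2 fold change of -0.51 in all 6 libraries, 1.68 without control replicate 1 and -1.64 without knock-out replicate 1. Slc16a3 overlaps Csnk1d on the opposite strand, which had 393% of its counts.

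Near-identical copies limit several of these genes. Rows described as pseudogenes were found for 11 members and were most numerous for Ldha (21 rows), Eno1 (8 rows) and Aldoa (6 rows). They held 11.6% to 12.7% of the summed counts of Ldha and its copies, 17.5% to 19.1% for Pkm, 30.9% to 48.1% for Ldhb and 37.6% to 47.8% for Pdhb over the 6 libraries. For Ldhb the highest share, 48.1%, was that of knock-out replicate 1, the library in which Ldhb itself was lowest. With the copies added, the log2 fold change of Ldhb was -0.61 and that of Pdhb 0.10. Gapdh, the glycolytic dehydrogenase that is often used as a reference gene, is not a member and had 131 to 163 counts per library beside 262 pseudogene rows with 158 to 194 counts, so its level cannot be read from this table. The Eno1 row lies on an unplaced scaffold and not at the RefSeq locus on chromosome 4 (150236708 to 150248879), which no row of the table covers. Its 17 to 49 counts per library cannot be read as the level of enolase 1. The other 33 members overlapped their RefSeq positions. The Pdk1 row lies at the pyruvate dehydrogenase kinase gene (chromosome 2, 71873218 to 71903858, plus strand), although its description in the table is that of another kinase, phosphoinositide-dependent protein kinase, which has a row of its own on chromosome 17.

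Among the genes that steer pyruvate into the mitochondrion, 2 of the 4 kinases that switch pyruvate dehydrogenase off were higher and its catalytic alpha subunit was slightly lower in knock-out SECs, none past the edgeR threshold. Pdk1 was at 151 CPM in knock-out replicate 1, 96.9 CPM in replicate 2 and 81.1 CPM in replicate 3, against 58.3, 53.8 and 41.9 CPM in control SECs. The lowest knock-out library was above the highest control library. The means were 109.8 ± 36.9 and 51.4 ± 8.48 CPM (SD, n = 3 each), a 2.14-fold difference with a log2 value of 1.10 ± 0.26 (SE), and a 95% interval from 0.46 to 1.73, and edgeR put its adjusted p at 0.138. Pdk4, the kinase known for its rise in fasting and fat use, had the highest mean RPKM of the 6 genes over all libraries (37.8, beside 34.6 for Pdha1), although Pdha1 lay wholly above it in control libraries. It was at 139, 169 and 185 CPM in knock-out SECs, against 117, 92.8 and 75.2 CPM in control SECs. The groups did not overlap (1.73-fold, log2 value 0.79 ± 0.19 (SE), edgeR adjusted p = 0.140). Pdk2 and Pdk3 differed little, with log2 fold changes of -0.02 (95% interval -0.39 to 0.35) and -0.04 (95% interval -0.80 to 0.73).

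Pdha1, the alpha subunit that these kinases phosphorylate, was at 82.0, 85.6 and 92.7 CPM in knock-out SECs, against 99.5, 109.6 and 104.9 CPM in control SECs. The difference was small and the groups were apart (log2 value -0.27 ± 0.09 (SE), adjusted p = 0.227 by edgeR). Pdha1 overlaps Map3k15 on the opposite strand, which had 24.0% as many counts. Pdhb, the beta subunit, was at 19.3 to 25.7 CPM in knock-out and 19.9 to 23.4 CPM in control libraries.

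**Figure D2:**
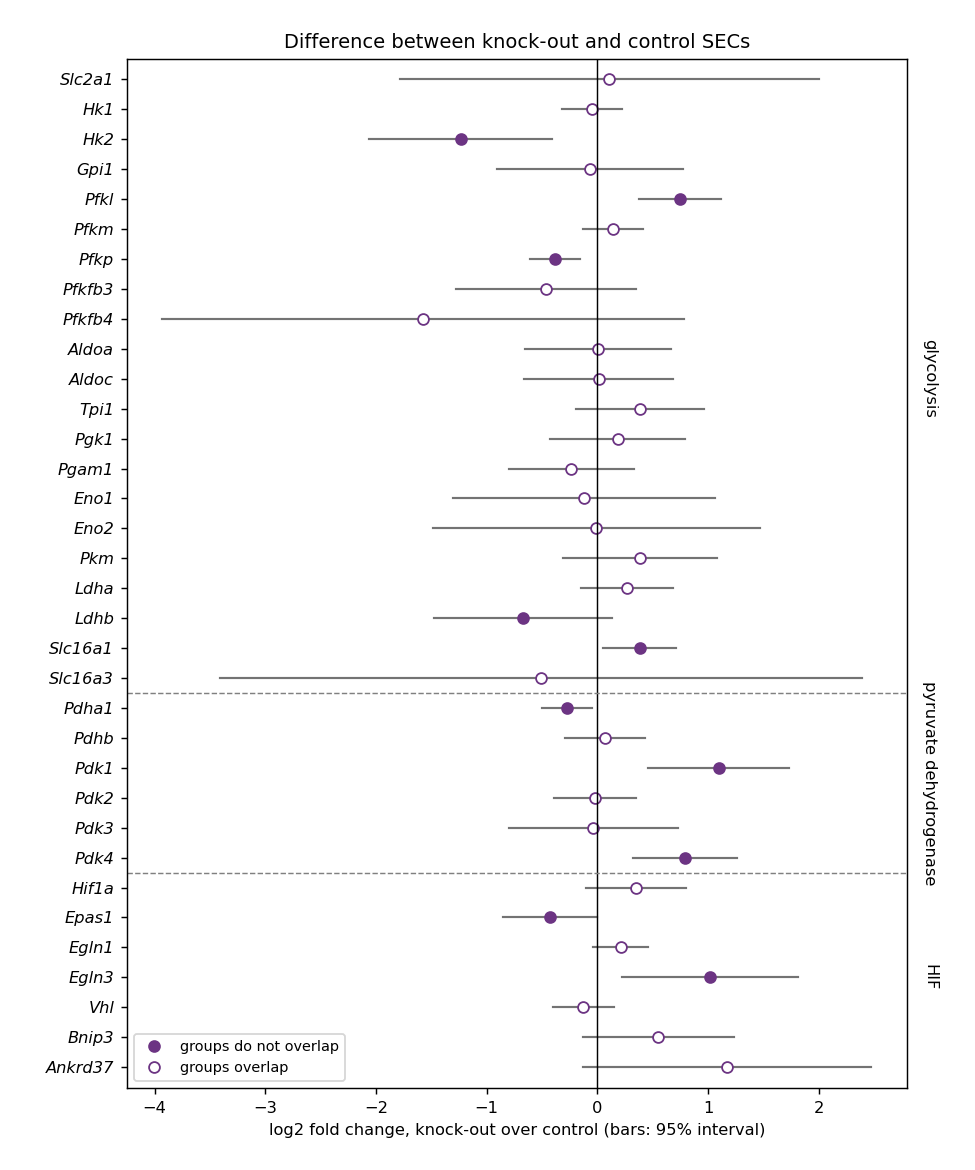
Log2 fold change of knock-out over control SECs for each member (edgeR, points) with its 95% interval (bars), in the order of the pathway. Filled points are the 10 members whose groups did not overlap, among them Hk2 (-1.23) and Pdk1 (1.10), and the widest intervals are those of Slc16a3, Pfkfb4 and Slc2a1.

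The fold changes of the HIF alpha subunits had opposite signs, and neither passed the edgeR threshold. Epas1 was at 624, 903 and 778 CPM in knock-out SECs, against 1144, 947 and 1008 CPM in control SECs. Every knock-out library was below every control library, by the narrow gap of 903 against 947 CPM (log2 fold change -0.43 ± 0.18 (SE), edgeR unadjusted p = 0.0486, adjusted p = 0.282). Hif1a was at 194, 139.8 and 155 CPM in knock-out SECs and 152, 127 and 105 CPM in control SECs, and the groups overlapped (log2 fold change 0.35, 95% interval -0.10 to 0.80). Of the prolyl hydroxylases, Egln3, which is itself raised by HIF, was at 34.2, 22.4 and 24.2 CPM in knock-out SECs, against 19.8, 9.71 and 10.3 CPM in control SECs. The groups were apart, and within each group replicate 1 was the highest. The log2 fold change was 1.02 ± 0.33 (SE), a 2.03-fold difference (edgeR adjusted p = 0.208). Egln1, the main oxygen sensor, was at 76.6 to 89.1 CPM in knock-out and 67.6 to 76.6 CPM in control libraries, with the lowest knock-out and the highest control library level with each other. Vhl was at 24.8 to 27.4 CPM in knock-out and 26.5 to 31.8 CPM in control libraries.

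Bnip3 and Ankrd37 are HIF targets outside glycolysis. Bnip3, which promotes the removal of mitochondria, was at 16.9, 11.05 and 9.92 CPM in knock-out SECs and 11.3, 7.34 and 7.21 CPM in control SECs. Ankrd37 was at 11.3, 4.17 and 6.82 CPM in knock-out SECs and 5.65, 2.28 and 1.99 CPM in control SECs. Both genes overlapped between the groups with control replicate 1 inside the range of the knock-out libraries. Their log2 fold changes were 0.55 (95% interval -0.13 to 1.24) and 1.17 (95% interval -0.13 to 2.48). Ankrd37 overlaps Ufsp2 on the opposite strand, which had 335% of its counts.

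The isoform makeup of a step was compared per gene length, as the percent of the summed RPKM of that step. Of 15 shares, 8 did not overlap between the groups, and each of these had an exact two-sided permutation p of 0.1, the smallest that 3 libraries against 3 can give (0.188 after Benjamini-Hochberg adjustment over the 15). Pfkl made up 82.8%, 79.1% and 76.0% of phosphofructokinase in knock-out libraries, against 69.6%, 70.4% and 66.4% in control libraries. Pfkp made up 7.64% ± 0.69 and 14.3% ± 1.10 (SD, n = 3 each), and Pfkm 13.1% ± 2.74 and 16.9% ± 1.04, in knock-out and control libraries, so the liver form held the larger part of the step in both groups. Hk2 made up 3.56% ± 1.24 of the hexokinase sum in knock-out and 7.87% ± 1.80 in control libraries, and Ldhb 5.73% ± 2.87 and 10.1% ± 1.78 of the lactate dehydrogenase sum. Among the kinases, the shares of Pdk2 (11.8% ± 0.90 in knock-out and 19.5% ± 5.91 in control libraries) and Pdk3 (6.53% ± 1.12 and 10.4% ± 2.66) were lower without overlap, while those of Pdk1 and Pdk4 overlapped. Epas1 made up 74.7%, 85.6% and 82.2% of the HIF alpha sum in knock-out libraries, against 87.4%, 87.3% and 89.8% in control libraries. The shares of Aldoc, Eno2, Slc16a3, Pfkfb3 and Egln3 overlapped. The shares of 1 step sum to 100% and are not independent of each other.

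**Figure D3:**
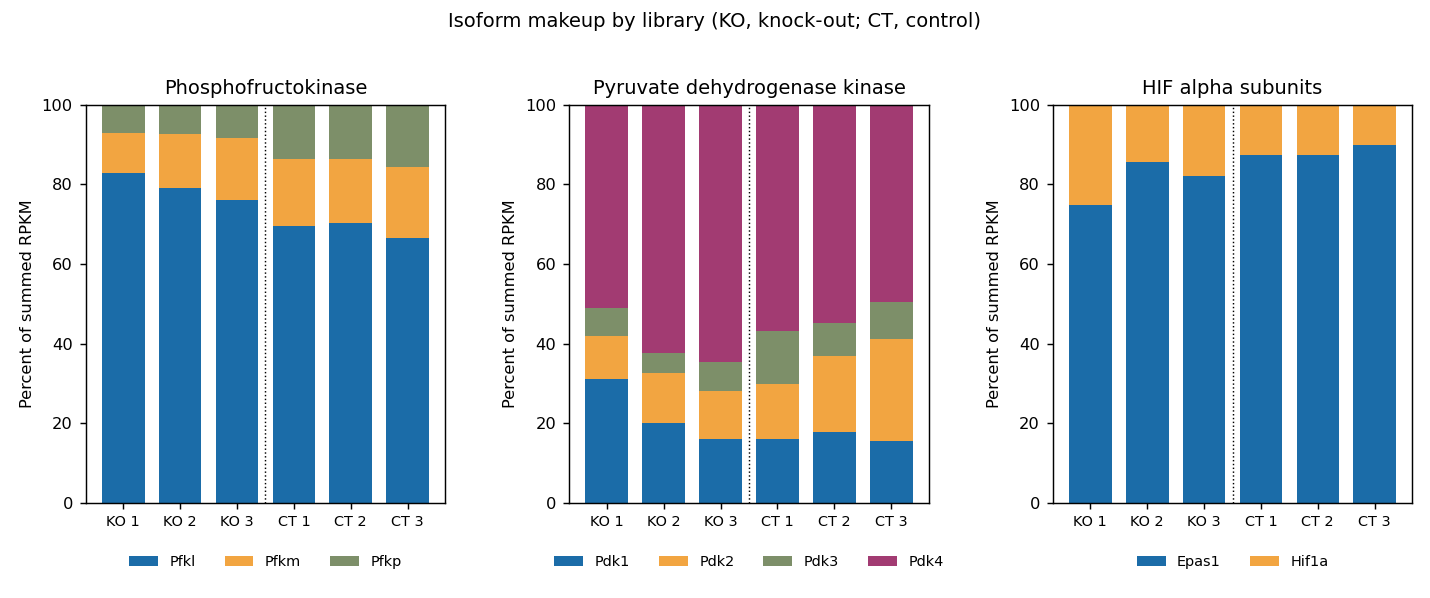
Percent of the summed RPKM of phosphofructokinase, of the pyruvate dehydrogenase kinases and of the HIF alpha subunits taken by each isoform, with the 3 knock-out libraries left of the dotted line and the 3 control libraries right of it. Pfkl reached 76.0% to 82.8% in knock-out and 66.4% to 70.4% in control libraries.

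Replicate 1 carried a pattern of its own in both groups. Of the 34 members, 17 (50%) were highest in replicate 1 of the knock-out and of the control group alike, beside 18.2% of all tested genes. In 6 members (17.6%, beside 3.51% of all genes) replicate 1 exceeded 1.5 times the highest other library of its group in both groups. These were Slc2a1, Pfkfb4, Eno1, Slc16a3, Bnip3 and Ankrd37, of which the Eno1 row cannot be read as enolase 1. Replicate 1 was 4.68 times the mean of the other knock-out libraries and 11.8 times the mean of the other control libraries for Slc16a3. These factors were 3.55 and 3.86 for Slc2a1, and 3.87 and 6.16 for Pfkfb4. The members above 1.5 times thus included both ends of the pathway, a glucose importer and a lactate exporter. Neutrophil markers were highest in the same pair of libraries, as given above, and their part in this pattern was not tested. Of the pyruvate dehydrogenase genes, only Pdk1 was highest in replicate 1 of both groups. Pfkl, Slc16a1 and Pdk4, the other higher members with groups apart besides Egln3, were not.

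**Figure D4:**
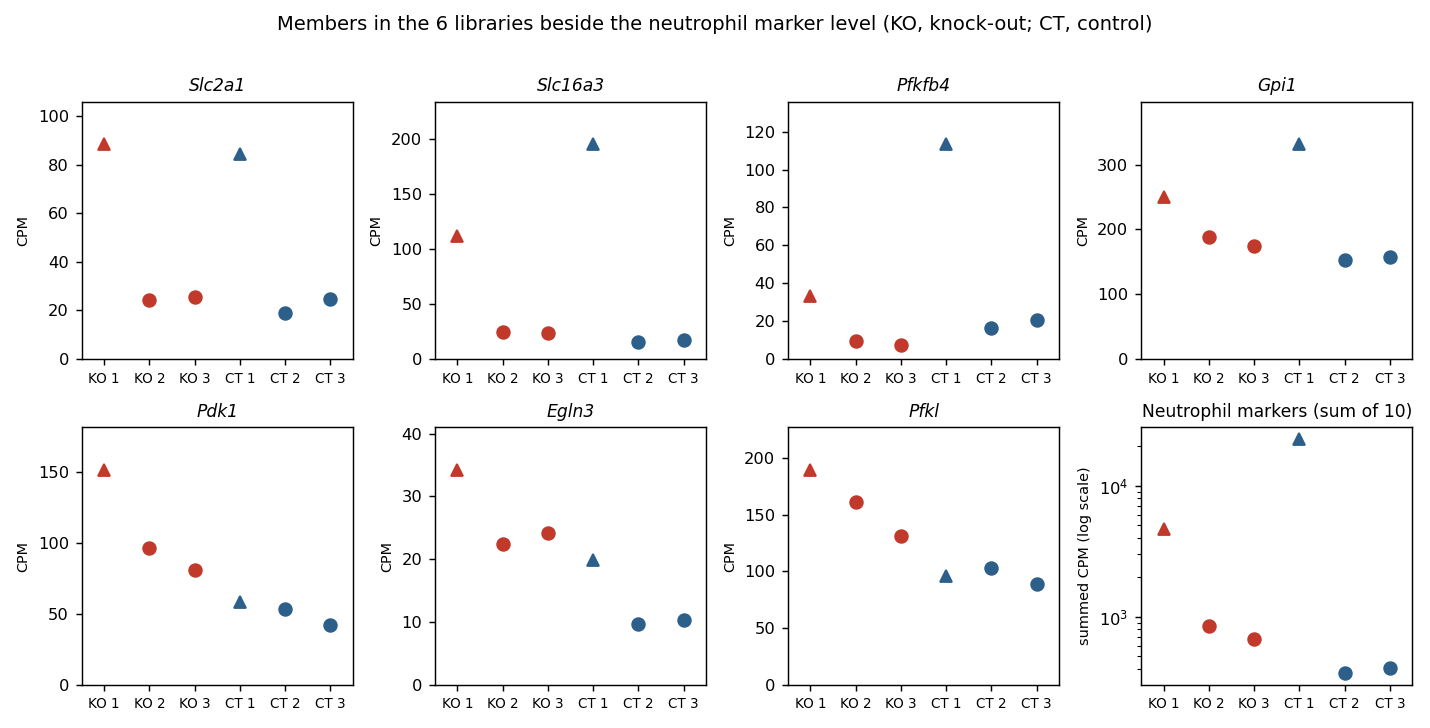
Normalized CPM of 7 members in each library, beside the summed CPM of 10 neutrophil markers on a log scale, with knock-out libraries in red on the left and control libraries in blue on the right, and replicate 1 as triangles. Slc2a1, Slc16a3 and Pfkfb4 are highest in both replicate 1 libraries, as the neutrophil markers are, while Pfkl separates the groups with control replicate 1 inside the control range.

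The fit was repeated without both replicate 1 libraries, an alternative chosen after the data were seen that compares 2 knock-out with 2 control libraries. EdgeR then called 5 members (14.7%), beside 4.56% of all tested genes. Pdk1 (log2 fold change 0.90 ± 0.17 (SE), adjusted p = 0.0493), Pdk4 (1.08 ± 0.14, adjusted p = 0.0273) and Egln3 (1.22 ± 0.15, adjusted p = 0.0232) rose in knock-out SECs in this comparison. Hk2 (-1.64 ± 0.27, adjusted p = 0.0396) and Pfkfb4 (-1.09 ± 0.21, adjusted p = 0.0498) fell. Pfkl was at 0.61 ± 0.15 and was not called (adjusted p = 0.078). Over all alternatives the adjusted p ran from 0.00729 to 0.341 for Pdk1, 0.0198 to 0.373 for Pdk4, 0.0232 to 0.411 for Egln3, 0.0209 to 0.427 for Hk2, 0.0498 to 0.939 for Pfkfb4 and 0.00542 to 0.333 for Pfkl. Slc16a3 was at 0.54, against -0.51 in all 6 libraries, and Slc2a1 at 0.19, against 0.11 in all 6 libraries, on the log2 scale.

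The wider pathways were read from lists of further genes, in none of which edgeR called a gene at an adjusted p under 0.05. Of 24 other glycolysis and glucose handling genes tested, 2 were higher and 1 lower at an unadjusted p under 0.05. These were 12.5%, a smaller share than the 17.5% of all tested genes (median log2 fold change -0.04). Slc2a2, the glucose transporter of hepatocytes, was at 3.36 to 7.18 CPM in knock-out and 8.85 to 17.3 CPM in control libraries (log2 fold change -1.22). Bpgm, which makes bisphosphoglycerate, was at 21.6 to 48.6 CPM and 12.8 to 16.5 CPM (log2 fold change 1.05), and Pgp, a phosphatase that clears toxic side products of glycolysis, at 27.4 to 31.9 and 22.2 to 24.8 CPM (0.35). Bpgm is best known from red cells, and the 12 markers of red cells and platelets summed to 164, 52.9 and 33.5 CPM in knock-out libraries, against 19.2, 14.8 and 24.3 CPM in control libraries. Itga2b, a platelet integrin, made up nearly all of these sums, 4 of the 12 markers were at 0 counts throughout, and their part in the level of Bpgm was not tested. Of 7 gluconeogenesis genes, 0 were at an unadjusted p under 0.05 (median 0.23), and Pck2, G6pc3 and Pck1 had the smallest p, with log2 fold changes of 0.23, 0.12 and 1.22. Of 7 pentose phosphate genes, 1 was lower (14.3%, beside 17.5% of all tested genes in either direction, median -0.29). This was Taldo1, transaldolase, at 79.7 to 104 CPM in knock-out and 115 to 202 CPM in control libraries (log2 fold change -0.69). Rpia and Tkt followed at -0.29 and -0.63.

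Downstream of pyruvate, 3 of 7 pyruvate entry genes were lower at an unadjusted p under 0.05, beside 8.13% of all genes, and 0 were higher (median log2 fold change -0.33). Mpc1 and Mpc2 encode the mitochondrial pyruvate carrier. Mpc1 was at 3.27, 3.68 and 4.18 CPM in knock-out SECs, against 5.97, 6.08 and 6.07 CPM in control SECs (log2 value -0.70 ± 0.18 (SE), adjusted p = 0.155 by edgeR). Mpc2 was at 19.1, 20.9 and 21.8 CPM in knock-out SECs, against 31.4, 26.1 and 29.4 CPM in control SECs (-0.49 ± 0.12, adjusted p = 0.139). Both carrier genes were lower in 3 of 3 knock-out libraries than in any control library. Pdp1, the phosphatase that reverses the kinases, was at 8.63 to 9.53 CPM in knock-out and 10.5 to 13.6 CPM in control libraries (log2 fold change -0.38). Of 20 citric acid cycle genes, 2 were higher and 1 lower (median 0.03). This share of 15% was below the 17.5% of all tested genes. Suclg2, a succinyl-CoA ligase subunit, was at 32.1 to 40.2 CPM in knock-out and 21.3 to 25.2 CPM in control libraries (0.65), Fh1, fumarase, was at 41.7 to 50.7 and 34.8 to 38.1 CPM (0.34), and Idh1 was at 71.4 to 99.6 and 93.9 to 136 CPM (-0.51).

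Around HIF, 1 of 19 other regulators was higher and 1 lower at an unadjusted p under 0.05 (median log2 fold change -0.02). This share of 10.5% was below the 17.5% of all tested genes. Hsp90ab1, a chaperone of the alpha subunits among many clients, was at 1269 to 1328 CPM in knock-out and 923 to 1015 CPM in control libraries (log2 fold change 0.41). Hif3a was at 0.82 to 0.9997 and 1.14 to 2.79 CPM (-1.01), and Cited2, which competes with HIF for its coactivators, at 29.1 to 46.3 and 39.1 to 66.2 CPM (-0.61). The low level of Hif3a limits the precision of its fold change. Of 38 other HIF target genes, 5 were higher and 2 lower, 18.4% beside 17.5% of all genes, with a median of 0.11. Vegfa, the endothelial growth factor that hypoxia induces, was at 72.6, 38.5 and 45.2 CPM in knock-out SECs, against 35.4, 29.5 and 32.1 CPM in control SECs (log2 fold change 0.69). Rora, a nuclear receptor, was at 37.6 to 38.6 CPM in knock-out and 44.7 to 69.2 CPM in control libraries (-0.56). Bhlhe40, a transcriptional repressor, was at 282 to 466 CPM in knock-out and 180.3 to 238 CPM in control libraries (0.72). The share of HIF targets with an unadjusted p under 0.05 was thus close to that of all tested genes.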

How the data were processed

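Total RNA of SECs was extracted with TRIzol, and libraries followed a standard Illumina protocol per the labels. The submitters' processing notes name bcl2fastq, TopHat2 2.0.13 and mm10. No source used here gives the counting program, the annotation or whether strand was used. The authors deposited whole-number counts per gene with no normalization, and RPKM that the authors derived from the same counts (100.0% equalled count over length and total within 0.1%). Counts were tested with edgeR 4.0.16 in R 4.3.3 (TMM, filterByExpr, robust glmQLFit and two-sided glmQLFTest), with Benjamini-Hochberg adjustment over 15404 genes at 0.05. RPKM served for levels between genes and isoform shares, tested by exact permutation over libraries. CPM are TMM-normalized. The members and the 16 gene lists (236 entries, 231 matched by symbol and 5 by gene ID or synonym) were chosen with earlier results of these data known. Per-library values were given for members at an unadjusted p under 0.05, with groups that did not overlap, or with the highest RPKM of their class, and from each list up to 3 genes with the smallest p. Per-library values of Slc2a1, Slc16a3, Pfkfb4, Tpi1, Hif1a, Bnip3 and Ankrd37 were added after they were seen. In the table, 27 gene names turned into dates were restored and 4 aliases removed. The fit was tested on simulated data. Alternatives were other size factors, filters, DESeq2 1.42.0, limma-voom 3.58.1, a replicate block, counts summed with pseudogene rows, counts without ribosomal RNA rows and leaving out libraries.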

Additional observations from a re-analysis of the deposited data

How the results depend on the processing

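Over 16 alternatives, 21 of 34 members kept the direction of their log2 fold change and 13 reversed in at least 1, none of which had an absolute value above 0.51 in all 6 libraries. The cause of these changes was not tested. Genes called higher and lower by edgeR (16 and 14) were 483 and 389 with DESeq2, 316 and 222 with limma-voom, 114 and 62 with no filter on low counts, 47 and 26 with the stricter filter, 35 higher with RLE and 41 higher with upper-quartile size factors, 269 and 444 without both replicate 1 libraries, and 0 to 23 and 0 to 18 when 1 library was left out. Members called (0 and 0) were 3 higher and 1 lower with DESeq2, 2 and 2 with limma-voom, and 3 and 2 without both replicate 1 libraries. Members at an unadjusted p under 0.05 (5 and 4) were 3 to 9 higher and 2 to 4 lower when 1 library was left out. Of all genes tested in those fits (15731 to 15858), 969 to 1585 were higher and 687 to 1441 lower. Without both replicate 1 libraries 10 members were higher, beside 1724 of 15619 genes. With upper-quartile factors 2 members were lower, beside 1032 of 15404 genes. Members with groups apart (5 and 5) were 6 to 14 and 5 to 7 when 1 library was left out (15.6% to 22.2% and 13.9% to 19.9% of all genes), 8 higher with upper-quartile factors (14.7% of all genes), and 15 and 8 without both replicate 1 libraries, where 29.0% and 28.4% of all genes were apart. The pyruvate dehydrogenase median was -0.022 to 0.23 when 1 library was left out and 0.19 without both replicate 1 libraries. In shares of raw counts the differences were -5.99 percentage points for Hk2, -13.7 for Pfkp, 15.4 for Pfkl and -1.66 for Pfkm.

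Reversed log2 values without both replicate 1 libraries were 0.23 for Gpi1, -0.19 for Aldoa, -0.37 for Aldoc, -0.012 for Tpi1, 0.54 for Slc16a3 and 0.31 for Pdk3. With limma-voom they were 0.10 for Gpi1, -0.17 for Aldoa, -0.21 for Aldoc, 0.31 for Slc16a3, 0.029 for Pdk2 and 0.22 for Pdk3. With upper-quartile factors they were 0.011 for Eno2, 0.015 for Pdk2 and 0.019 for Pdk3, and with pseudogene rows added 0.0023 for Eno2. With 1 library left out, values ran from -0.76 to 1.07 for Slc2a1, -0.11 to 0.046 for Hk1, -0.25 to 0.40 for Gpi1, -0.32 to 0.20 for Aldoa, -0.20 to 0.13 for Aldoc, -0.012 to 0.42 for Pgk1, -0.56 to 0.27 for Eno1, -0.43 to 0.59 for Eno2, -1.64 to 1.68 for Slc16a3, -0.0031 to 0.19 for Pdhb, -0.12 to 0.10 for Pdk2 and -0.21 to 0.35 for Pdk3. The stricter filter removed Eno2.

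Replicate numbers are shared by the groups, and the correlations of deviations between libraries of the same number were 0.19, 0.03 and 0.42. Between libraries of different numbers they were -0.46 to 0.20. The same number gave the highest value for numbers 1 and 3 and not for 2. These values do not settle whether the numbers pair the samples, and the main fit used no pairing. With the replicate number as a block, 1 gene was called higher and 2 lower, and 0 members were called. At an unadjusted p under 0.05, 8 members were higher in this fit, beside 1468 of 15404 genes. Its reversed log2 values were 0.017 for Gpi1, -0.042 for Aldoa, 0.085 for Eno2, 0.069 for Slc16a3 and 0.014 for Pdk3. Eno2 had under 50 counts in every library, which limits its precision.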
